A study of Homo sapiens with 12 samples.

Results

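The comparison of FR1 with hnCD16 asked how the RNA of natural killer (NK) cells differed when the CD16 receptor carried added signaling domains. CD16 is the Fc receptor by which NK cells bind antibody-coated targets. It has a short cytoplasmic tail and signals through partner chains such as CD3ζ. The cells of all groups were labelled YT, an established human NK-like lymphoid line that lacks CD16, and all had been infected with a lentiviral vector and sorted for eGFP without further stimulation. The hnCD16 cells carried a high-affinity, non-cleavable CD16 under the constitutive EF1A promoter. In FR1 cells, the ectodomain of hnCD16 was joined to the cytoplasmic parts of 2B4, DAP10 and CD3ζ. FR2 lacked the 2B4 part, and control (CTRL) cells carried eGFP alone. Each group was 1 transduced and sorted population with 3 libraries, so the construct and the population that carried it cannot be told apart.

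Of the 12 libraries, 6 entered the comparison, with 3 of FR1 and 3 of hnCD16. Total counts ranged from 18381680 to 18729013 in these 6 libraries, and the intervals and lower bounds given for ratios cover counting error only. The table held 17589 genes, and 13657 passed the filter on low counts and were tested. A gene was called differentially expressed (a DEG) when its level changed by 1 or more on the log2 scale in either direction and its Benjamini-Hochberg adjusted p did not exceed 0.05 in edgeR's quasi-likelihood test. Levels within a gene are CPM, that is counts scaled to a common library size with normalization factors, and log2 fold changes are FR1 over hnCD16. The genes described here were the DEGs whose mean reached 100 CPM in FR1 or in hnCD16, called abundant DEGs. There were 892 of them among 2901 abundant genes.

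Cytotoxic lymphocytes store perforin and granzymes in secretory granules and release them onto target cells. NK cells also sense HLA class I molecules on other cells, where these molecules are loaded with peptides by the antigen presentation machinery. T lineage cells assemble the CD3 chains with the T cell receptor, and immature lymphoid cells depend on transcription factors such as MYB, TCF7 and LEF1.

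The libraries differed in markers of cell type. Of 16 listed NK markers, 5 reached 1 CPM in every hnCD16 library and 13 in every FR1 library. The summed level of the 16 NK markers was 46.1 to 48.6 CPM in hnCD16 and 4948 to 5198 CPM in FR1. GZMB alone made up most of the FR1 sum (2706 to 2844 CPM, against 0.544 to 0.903 CPM in hnCD16). Of the 16 markers, 12 had at least 4 times the level in each FR1 library. The listed NK marker SH2D1B had no count in hnCD16, and NCR1, NCAM1 and TBX21 did not exceed 0.213 CPM in any hnCD16 library. In FR1, TBX21 ranged from 77.7 to 83.3 CPM and NCR1 from 25.2 to 26.7 CPM. Other NK markers were low in FR1 too, with 0.343 to 0.578 CPM for SH2D1B, 1.68 to 2.43 CPM for NCAM1 and 0.0578 to 0.114 CPM for KLRF1. NCR3 was lower in FR1, at 0.694 to 0.971 CPM against 5.37 to 5.71 CPM in hnCD16. KLRD1 differed little, at 13 to 15.3 CPM in FR1 and 10.9 to 13 CPM in hnCD16. EOMES read 6.11 to 6.64 CPM in hnCD16 and 15.9 to 17.9 CPM in FR1. NKG7 read 9.4 to 11.6 CPM in hnCD16 and 789 to 816 CPM in FR1. The summed level of 13 T cell markers ran the other way, with 1143 to 1220.1 CPM in hnCD16 and 138 to 143 CPM in FR1. Within that list CD28 was higher in FR1, at 90.9 to 94.1 CPM against 2.71 to 3.56 CPM in hnCD16. For 8 B cell markers the sums were 356 to 396 and 39.4 to 43.6 CPM. IGLL1 made up most of the hnCD16 sum (321 to 353 CPM, against 0.636 to 0.743 CPM in FR1), and PAX5 most of the FR1 sum (38 to 42.2 CPM, against 0 to 0.109 CPM in hnCD16). Sums of myeloid, erythroid, epithelial and fibroblast markers did not exceed 10.8 CPM in any FR1 or hnCD16 library. All 10 HLA genes checked had at least 4 times the level in each FR1 library, as did 7 of 8 genes of the Y chromosome. CTRL libraries lay with hnCD16 and FR2 libraries with FR1 in the T cell, HLA and Y chromosome lists and in the NK list, where sums were 43.8 to 48.9 CPM in CTRL and 4860.2 to 4959.9 CPM in FR2. Whether the groups hold the same kind of cell, as their label says, and the part of these markers in the results were not tested, and in bulk RNA fewer cells of a type and less RNA per cell cannot be told apart.

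Genes whose sequence the vectors carry in part were checked next. The level of FCGR3A, which encodes CD16a, was 0 CPM in every CTRL library, 25 ± 0.928 CPM in hnCD16 and 32.4 ± 0.435 CPM in FR1 (mean ± SD, n = 3). Reads of FCGR3A and its near-identical copy FCGR3B may be split between both, so each value is uncertain. CD244, which encodes 2B4, read 10.1, 9.99 and 9.46 CPM in the hnCD16 libraries and 128, 127 and 132 CPM in the FR1 libraries. Its log2 fold change was 3.71 (standard error, SE, 0.0608). In FR2 against CTRL, where no vector carried a 2B4 part, the log2 fold change of CD244 was 4.19. HCST (DAP10) had 10 ± 0.657 and 16.6 ± 0.308 CPM in hnCD16 and FR1, and CD247 (CD3ζ) had 82 ± 3.17 and 104 ± 1.71 CPM. Neither of these genes, nor FCGR3A or FCGR3B, was a DEG.

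Across all tested genes, 5234 (38.3%) were DEGs, 2553 (18.7%) higher and 2681 (19.6%) lower in FR1. Among abundant genes 30.7% were DEGs, with 601 (20.7%) higher and 291 (10%) lower in FR1. Genes higher in FR1 therefore made up 67.4% of the abundant DEGs and 48.8% of all DEGs. The median log2 fold change was 0.11 over abundant genes and -0.01 over all tested genes. Libraries of the 2 groups did not overlap for any of the 892 abundant DEGs, which the fold threshold nearly fixes, and did not overlap for 89.5% of all abundant genes. Every abundant DEG had an adjusted p of at most 8e-05 (edgeR), and the median SE of their log2 fold changes was 0.0621. These p-values measure the spread between libraries, as the labels do not say whether the libraries came from separate cultures. The study's methods mention independent experiments for in vitro data in general.

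Part of the abundant DEGs were nearly absent from one group. Of the genes higher in FR1, 340 had a log2 fold change below 2, 99 had 2 to 3, 58 had 3 to 5 and 104 had at least 5. For the genes lower in FR1 the numbers were 194, 34, 11 and 52. At most 3 counts in every hnCD16 library were found for 14 of the genes higher in FR1, and 11 of these had no more than that in any CTRL library. Conversely, 15 genes lower in FR1 had at most 3 counts in every FR1 library. Only 168 abundant DEGs reached 100 CPM in both groups, 106 higher and 62 lower in FR1. The others were abundant through 1 group alone, 495 through FR1 and 229 through hnCD16.

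**Figure D1:**
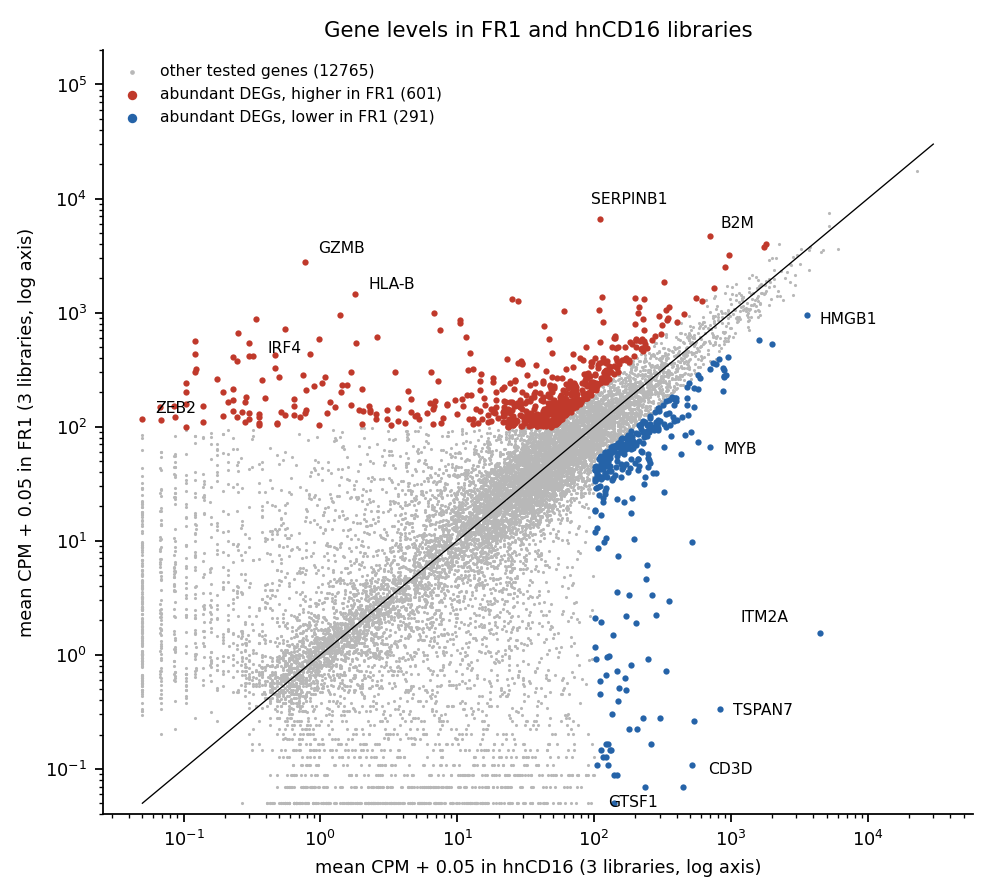
Mean CPM + 0.05 in FR1 (vertical) against hnCD16 (horizontal), both log axes, each point a tested gene and the line marking equal levels. The 601 abundant DEGs higher in FR1 and the 291 lower lie away from the line, with a tail of genes near 0 in one group such as GZMB, ITM2A and CD3D.

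Of the 892 abundant DEGs, 194 were on at least 1 of 22 function lists and 698 on none. The genes higher in FR1 took up 16.9% ± 0.0792 of all counts in FR1 libraries and 4.35% ± 0.126 in hnCD16 libraries (SD, n = 3). The genes lower in FR1 took up 2.1% ± 0.017 in FR1 and 7.91% ± 0.0741 in hnCD16. These shares describe the size of the change and were not tested, since the groups chose the genes. All abundant genes together held 77% of the counts in FR1 and 75.8% in hnCD16.

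SERPINB1, an inhibitor of neutrophil and granule serine proteases, had the highest CPM in FR1 among the genes higher there, although RPS27, B2M, RPLP1 and GZMB exceeded it by TPM. Its libraries read 6626, 6714 and 6422 CPM in FR1 and 111, 115 and 104 CPM in hnCD16, for a log2 fold change of 5.91 (SE 0.07, adjusted p = 1.43e-20, edgeR). On the TPM scale, which divides by transcript length, SERPINB1 had 4506 ± 66.3 TPM in FR1 and ranked 25 of all genes in level, against rank 1894 in hnCD16. B2M, the light chain of HLA class I, rose from 735, 699.7 and 655 CPM to 4620.1, 4877 and 4465 CPM and ranked 5 by TPM in FR1. YWHAE, a 14-3-3 adaptor protein, rose from 961 ± 32 to 3199 ± 72.1 CPM. PKM, the last enzyme of glycolysis, rose from 325 ± 19.7 to 1867 ± 58.6 CPM. MCL1, an inhibitor of apoptosis, and MDM2, the ubiquitin ligase of p53, had log2 fold changes of 3.58 (SE 0.048) and 2.38 (SE 0.0554). IFI16, a sensor of DNA in the interferon response, had a log2 fold change of 1.66.

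ITM2A, an integral membrane protein of developing T cells, had the highest level in hnCD16 among the genes lower in FR1, by CPM and by TPM. Its hnCD16 libraries read 4542, 4622 and 4272 CPM and its FR1 libraries 1.45, 1.62 and 1.43 CPM, a log2 fold change of -11.54 (SE 0.13, adjusted p = 1.24e-20, edgeR). By TPM it ranked 18 of all genes in hnCD16 and 9935 in FR1. HMGB1, an abundant chromatin protein, fell from 3613, 3625 and 3449 CPM to 966, 951 and 914 CPM and stayed an abundant gene in both groups. ARHGDIB, a GDP dissociation inhibitor of small GTPases in blood cells, fell from 1996 ± 84.9 to 529 ± 4.78 CPM. SET, a histone chaperone, fell by 1.48 on the log2 scale. CD47, the surface signal that limits phagocytosis, and CD164, a sialomucin of progenitors, fell by 1.72 and 1.68. FTH1, the ferritin heavy chain that stores iron, fell by 2.08 (SE 0.0629). TSPAN7, a tetraspanin, was almost absent from FR1, with 847, 857 and 771 CPM in hnCD16 and 0.174, 0.405 and 0.286 CPM in FR1.

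**Figure D2:**
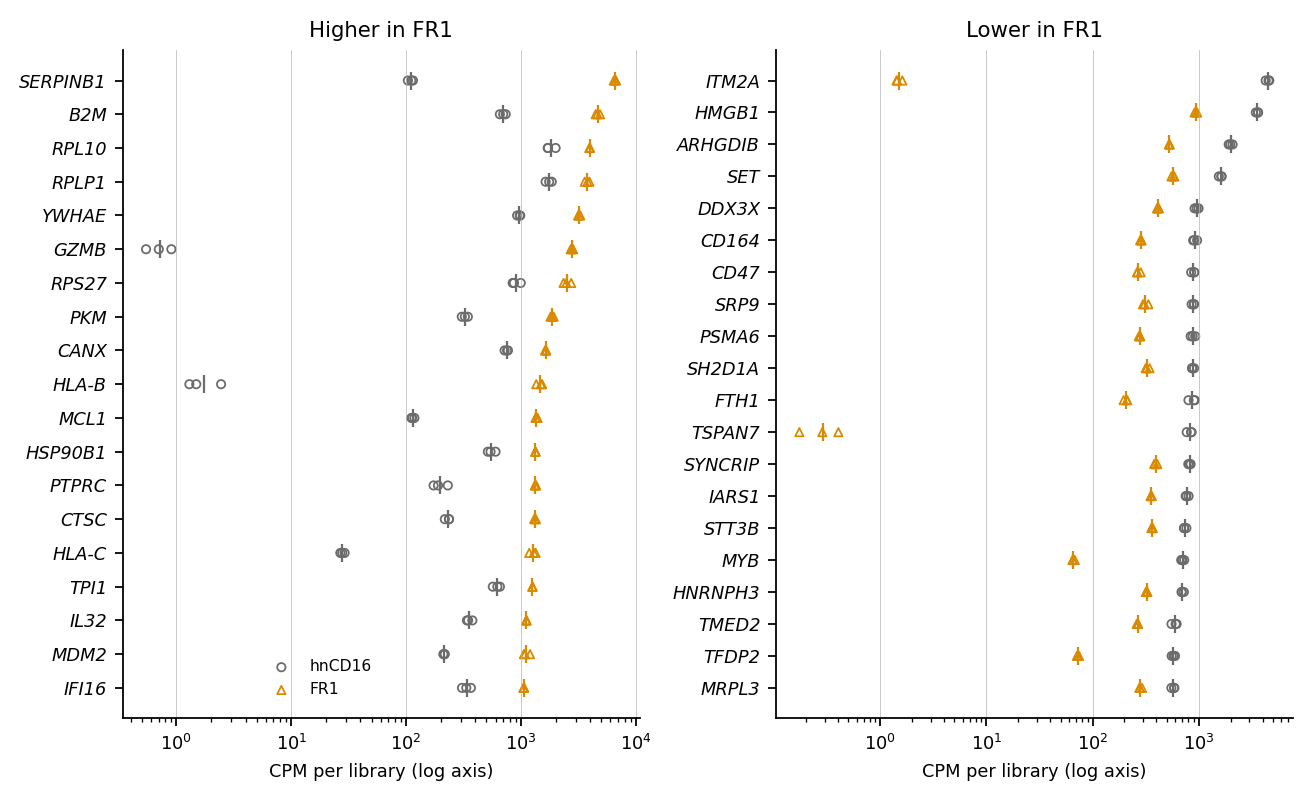
CPM per library (log axis) of abundant DEGs with the highest mean CPM, 19 of the top 20 by FR1 among those higher (left) and the top 20 by hnCD16 among those lower (right), with circles for hnCD16, triangles for FR1 and short vertical lines for group means. The 3 libraries of a group lie close together, and GZMB, HLA-B, ITM2A and TSPAN7 show the widest gaps.

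The function lists are given by their abundant genes and then by all of their tested genes. The latter are added since many abundant genes reached 100 CPM only through the group in which they were high. For the lists of shared cell machinery only the abundant genes are given. Over all abundant genes 20.7% were higher and 10% lower, and over all tested genes 18.7% and 19.6%. No list was tested as a whole.

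Of 17 tested genes of the cytotoxic granule and effector list, 14 were higher and 2 lower in FR1. The 10 abundant genes were all higher, but SERPINB1 and CTSC alone reached 100 CPM in hnCD16 as well. They were SERPINB1, GZMB, CTSC, SERPINB9, IFNG, PRF1, NKG7, SRGN, CST7 and GZMH. The lower genes, GZMA and CTSW, were not abundant, and their log2 fold changes were -2.27 and -4.39. GZMB encodes granzyme B, the granule protease that starts apoptosis in target cells. Its libraries read 0.544, 0.702 and 0.903 CPM in hnCD16 and 2844, 2706 and 2789.9 CPM in FR1 (log2 fold change 11.91, SE 0.089). PRF1, the pore-forming perforin, read 0.544, 0.432 and 0.266 CPM in hnCD16 and 438, 396 and 435 CPM in FR1. The libraries of the 2 groups did not overlap for these genes, which their selection nearly fixes and which held for 89.5% of all abundant genes. IFNG, which encodes interferon-γ, had 1, 2 and 0 counts in the hnCD16 libraries and 237, 259 and 227 CPM in FR1, a ratio of 4445 (95% counting interval 1521 to 21553) for the few counts in hnCD16. CTSC, the protease that activates granzymes, rose from 229.7 ± 11 to 1328 ± 23.3 CPM, and SERPINB9, the inhibitor that shields the killer cell from granzyme B, from 6.74 ± 1.16 to 982 ± 22.5 CPM.

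Of 4 abundant cytokines and growth factors, 3 rose and none fell, and over tested genes there were 17 higher and 7 lower of 27. HGF, the ligand of the MET receptor, had 1, 3 and 0 counts in the hnCD16 libraries and 551, 592 and 555 CPM in FR1, a ratio of 7844 (3063 to 28787). IL32 rose from 354 ± 20.5 to 1114 ± 5.87 CPM and HDGF from 264 ± 18.9 to 575 ± 17.9 CPM. Among 8 abundant cytokine and chemokine receptors, 5 rose and 1 fell, with 22 higher and 10 lower of 45 over tested genes. IL2RB, the signaling chain shared by the IL-2 and IL-15 receptors, read 0.598, 1.3 and 0.903 CPM in hnCD16 and 606, 549.97 and 615 CPM in FR1. TNFRSF8 (CD30) had a log2 fold change of 9.61 and IL6ST (gp130), the shared chain of the IL-6 family receptors, 4.73. The chemokine receptor CXCR4 ran the other way, with 310.1, 312 and 288 CPM in hnCD16 and 0.174, 0.173 and 0.343 CPM in FR1. 

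The HLA and antigen presentation list held 23 abundant genes, of which 18 rose and 1 fell, 82.6% called against 30.7% of all abundant genes. Over tested genes there were 30 higher and 2 lower of 37. HLA-B read 2.45, 1.3 and 1.49 CPM in hnCD16 and 1528, 1357 and 1490.3 CPM in FR1. HLA-C had 27.9 ± 1.19 CPM in hnCD16 and 1270.3 ± 83 CPM in FR1. Levels of single HLA genes are uncertain, since they share sequence and differ between people from the reference. The class II genes HLA-DRA, HLA-DRB1, HLA-DPA1 and HLA-DPB1 and the invariant chain CD74 were also among the genes that rose, with log2 fold changes of 11.05, 10.38, 11.66, 9.23 and 9.59. TAP1 and TAP2, which form the peptide transporter, rose by 2.58 and 1.69 on the log2 scale. PSMB8 and PSMB9, subunits of the immunoproteasome, rose by 1.0 and 1.34. PSME2, a subunit of the proteasome activator, rose by 1.64, and CANX, the chaperone calnexin, by 1.13. ERAP2, which trims peptides for class I, fell by 3.4.

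The RefSeq promoter table (GRCh38.p14, 250 bases before to 50 after the start) was searched on both strands for the core of the interferon-stimulated response element. This core is GAAA, any 2 bases and GAAA. Of the 18 genes that rose, 14 had a promoter in the table, and 4 of these (28.6%) held the motif. It occurred in 3.65% of 27305 promoters and in 3.43% of 2478 promoters of abundant genes. Among all abundant DEGs the share was 5.02% of 498 promoters of genes higher in FR1 and 3.17% of 252 of genes lower. The 4 promoters are printed from 5′ to 3′ on the strand of the gene with the motif in capitals, on either strand, and overlapping matches run into each other. B2M lies at chr15:44711267-44711566 (+), TAP1 at chr6:32853655-32853954 (-), TAP2 at chr6:32838690-32838989 (-) and PSME2 at chr14:24146561-24146860 (-).
B2M: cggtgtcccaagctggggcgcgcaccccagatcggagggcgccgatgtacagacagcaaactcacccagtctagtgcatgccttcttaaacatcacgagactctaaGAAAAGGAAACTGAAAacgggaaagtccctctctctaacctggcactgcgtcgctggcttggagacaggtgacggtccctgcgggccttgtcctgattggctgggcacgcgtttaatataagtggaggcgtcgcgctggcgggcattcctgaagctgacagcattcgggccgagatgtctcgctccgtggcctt
TAP1: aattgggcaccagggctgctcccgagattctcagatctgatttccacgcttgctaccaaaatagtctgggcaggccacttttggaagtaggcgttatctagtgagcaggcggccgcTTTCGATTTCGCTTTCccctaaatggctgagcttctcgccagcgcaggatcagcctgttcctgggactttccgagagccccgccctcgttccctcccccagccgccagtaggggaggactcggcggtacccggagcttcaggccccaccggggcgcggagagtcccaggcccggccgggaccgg
TAP2: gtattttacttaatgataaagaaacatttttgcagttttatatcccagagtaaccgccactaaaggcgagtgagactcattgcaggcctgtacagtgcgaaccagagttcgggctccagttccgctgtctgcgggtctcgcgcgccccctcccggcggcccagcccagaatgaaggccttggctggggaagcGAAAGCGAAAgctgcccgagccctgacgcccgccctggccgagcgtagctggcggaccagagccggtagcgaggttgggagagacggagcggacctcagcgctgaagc
PSME2: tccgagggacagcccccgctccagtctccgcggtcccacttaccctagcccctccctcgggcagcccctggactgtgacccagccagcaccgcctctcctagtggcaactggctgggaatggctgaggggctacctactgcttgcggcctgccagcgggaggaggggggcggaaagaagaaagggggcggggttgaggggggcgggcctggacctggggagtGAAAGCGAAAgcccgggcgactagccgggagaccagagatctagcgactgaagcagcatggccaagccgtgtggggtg
B2M and TAP1 each held 2 overlapping matches, and TAP2 and PSME2 1 each. CCAAT was found in 10 of the 14 promoters (71.4%), against 35.7% of all promoters and 38.4% of those of abundant genes. TTCNNNGAA, the core of a STAT site, was in 0 of the 14, in 7.88% of all and in 6.38% of those of abundant genes. GGGCGG was in 64.3% of the 14, TATAAA in 14.3% and AGATAA in 14.3%. In promoters of abundant genes these shares were 71%, 5.57% and 4.92%. A match describes letters in this window and not the binding of a factor. The list was made by function, and no share is given for its genes that did not rise. These shares therefore describe the promoters of the list, and a link to the change between FR1 and hnCD16 was not tested.

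Surface receptors and adaptors of NK and T cells split in both directions, with 4 higher and 7 lower of 12 abundant genes and 17 higher and 27 lower of 53 tested genes. CD3D, a chain of the T cell receptor complex, had 537, 535 and 489.7 CPM in hnCD16 and 1, 2 and 0 counts in the FR1 libraries, a ratio of 9003 (3081 to 43656) of hnCD16 over FR1. CD3E and CD3G fell by 1.57 and 6.57 on the log2 scale. SH2D1A (SAP), the adaptor of the SLAM receptors that include 2B4, read 868, 905 and 865 CPM in hnCD16 and 324, 345 and 317 CPM in FR1. CD99 fell by 6.32, LAIR1, an inhibitory receptor for collagen, by 3.09, and CD38, an NAD-consuming surface enzyme, by 1.36. CD244 rose with CD53, CD160 and KLRC1. CD160, an NK cell receptor, had a log2 fold change of 7.57, and KLRC1 (NKG2A) one of 9.85, which is uncertain because the NKG2 genes are near-identical.

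Lymphocyte signal transduction held 25 abundant genes, 16 higher and 4 lower in FR1, 80% called against 30.7% of all abundant genes. Over its tested genes the directions were balanced, with 22 higher and 23 lower of 67. PTPRC (CD45), the phosphatase that licenses SRC family kinases, rose from 173, 189 and 230.5 CPM to 1327, 1359 and 1319 CPM. FYN, one of those kinases, rose by 2.46 on the log2 scale. The JAK-STAT genes JAK1, JAK3 and STAT3 rose by 1.13, 1.45 and 1.22, and the feedback inhibitor SOCS3 by 8.99. PLCG2, a phospholipase, and PIK3CD, a lipid kinase, rose by 2.9 and 4.52. The abundant genes that fell were ARHGDIB, RHOH, VAV3 and PAG1. RHOH, a small GTPase, had 352 ± 21.5 CPM in hnCD16 and 2.9 ± 0.509 CPM in FR1.

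Transcription factors of lymphoid and blood cells split in both directions, with 9 higher and 10 lower of 23 abundant genes and 39 higher and 29 lower of 86 tested genes. ZEB2, a zinc finger repressor, had no count in hnCD16 and 115, 117 and 117 CPM in FR1, at least 719-fold higher against the level of 3 counts per library. IRF4, a factor of activated lymphocytes, read 0.544, 0.54 and 0.425 CPM in hnCD16 and 726, 717 and 729 CPM in FR1. IKZF3 (Aiolos), RUNX3 and ID2 rose by 5.18, 1.7 and 7.94 on the log2 scale. The last of these is an inhibitor that innate lymphoid cells need. MYB, the progenitor factor, read 702, 731 and 684 CPM in hnCD16 and 68.1, 64.8 and 65.4 CPM in FR1. TCF7 and LEF1, which act with β-catenin and in early T cells, fell by 7.01 and 5.34. MYC, NOTCH1, RUNX1, SATB1, IKZF2, TCF12 and ELF1 also fell, by 2.25, 1.84, 2.15, 1.14, 6.32, 1.0 and 1.83.

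The S100, annexin and galectin list, proteins that bind calcium, membranes or glycans, had 10 higher and 1 lower of 13 abundant genes and 12 higher and 4 lower of 20 tested genes. S100A4 read 62.4, 59.9 and 59.2 CPM in hnCD16 and 1019, 1109 and 986 CPM in FR1. AHNAK, a giant scaffold protein, rose from 1.33 ± 0.0465 to 954 ± 38.7 CPM, and S100A10, the partner of annexin A2, from 10.3 ± 0.814 to 865 ± 56.8 CPM. ANXA2 itself rose by 1.64 on the log2 scale, whereas ANXA1 fell by 1.93. Adhesion genes were split, 4 higher and 3 lower of 10, and over tested genes 13 higher and 19 lower of 43. The integrin ITGAL, a chain of LFA-1, rose by 2.6. CADM1, an adhesion molecule, had 1, 0 and 0 counts in the hnCD16 libraries and 115, 116 and 113 CPM in FR1, a ratio of 6324 (1135 to 249789). SPN (CD43) and PECAM1 fell by 2.06 and 6.5.

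Of 45 abundant cytoskeleton genes, 14 rose, 6 fell and 25 were not DEGs. Over its tested genes there were 18 higher and 15 lower of 70. FLNA, the actin cross-linker filamin A, read 226, 202 and 204 CPM in hnCD16 and 1032, 922 and 1050.1 CPM in FR1. TMSB10 and TAGLN2 rose by 1.4 and 1.54, and DSTN, an actin-severing protein, fell by 1.14. In apoptosis and survival, 4 genes rose (MCL1, MDM2, BAX and CDKN1A) and 2 fell (DIABLO and BID) of 12, and over tested genes there were 12 higher and 8 lower of 43. MDM2, BAX and CDKN1A are known targets of p53, as is RPS27L of the ribosomal list, and their log2 fold changes were 2.38, 2.04, 8.84 and 1.84. These 4 were grouped after their values were seen. No list of p53 targets was made, so targets that did not rise were not counted. On the apoptosis list BID and DIABLO went the other way, with log2 fold changes of -7.66 and -1.19.

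Metabolic lists had shares of abundant DEGs from 7.69% to 40.9%. The glycolysis and pentose phosphate list had 5 higher and 0 lower of 16 abundant genes, a share of 31.2% called, close to the 30.7% of all abundant genes, and 3 were called on library sizes without normalization factors. Its tested genes were split, 6 higher and 5 lower of 27. PKM, TPI1, GPI and the glucose transporter SLC2A3 rose by 2.52, 1.03, 1.27 and 4.02. Redox genes were split, 5 higher and 4 lower of 22 (40.9% called, against 30.7% of all abundant genes). Over tested redox genes there were 8 higher and 10 lower of 38. NQO1 rose by 2.52 and FTH1 and TXNIP fell by 2.08 and 2.21. Log2 fold changes of the abundant redox genes ran from -9.04 to 2.68. Amino acid and nucleotide metabolism had 5 higher and 5 lower of 34 (29.4% called, against 30.7% of all abundant genes). Its tested genes had 8 higher and 8 lower of 52. Among these, the purine salvage enzyme HPRT1 rose by 2.35, and GLUD1, ATIC and ADA fell by 1.14, 1.01 and 2.49. OXPHOS subunits had 1 higher and 4 lower of 65 abundant genes and the same numbers of 79 tested genes. SDHC, a subunit of complex II, fell by 1.99.

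Lists of the shared cell machinery had between 6.17% and 20.6% of their abundant genes called. Of 81 abundant genes of ribosomal proteins, 5 rose and 0 fell, 6.17% against 30.7% of all abundant genes. RPL10 read 2000.3, 1707 and 1718 CPM in hnCD16 and 3936, 3963 and 3989.8 CPM in FR1, and RPLP1 and RPS27 rose by 1.11 and 1.48. Reads of ribosomal protein genes can be shared with their pseudogenes, so their levels are uncertain. Translation factors had 3 higher of 38, chaperones 4 of 32, and neither list had an abundant gene lower in FR1. The chaperone HSP90B1 rose from 552 ± 43.6 to 1335 ± 5.89 CPM. In mRNA processing 1 gene rose and 2 fell of 42, and PRPF8, the core protein of the spliceosome, read 123, 114 and 114 CPM in hnCD16 and 826, 797 and 854 CPM in FR1. Chromatin genes had 1 higher and 3 lower of 30, with UHRF1, which guides DNA methylation to replicated DNA, lower by a log2 fold change of -2.0. DNA replication and mitosis had 4 higher and 5 lower of 45. CENPF, a kinetochore protein, read 105, 141 and 182 CPM in hnCD16 and 573, 593 and 688 CPM in FR1, and CDK6 fell by 1.3. Log2 fold changes of the abundant replication and mitosis genes ran from -1.46 to 9.22. Proteasome subunits had 5 higher, the immunoproteasome subunits PSMB8 and PSMB9 among them, and 2 lower of 34. The most abundant genes that were not DEGs included EEF1A1 and GAPDH, with log2 fold changes of -0.37 and 0.55.

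**Figure D3:**
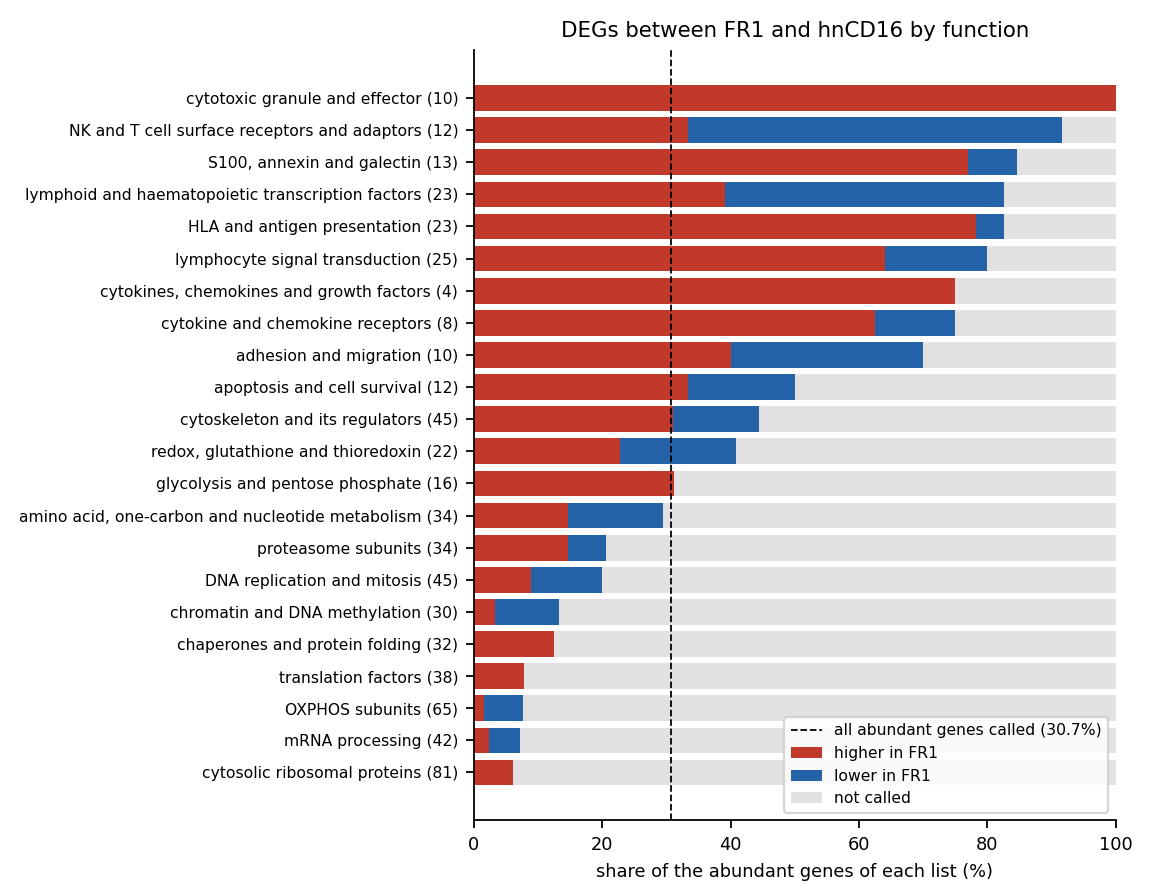
Share of the abundant genes of each function list (number in brackets) that were higher in FR1, lower in FR1 or not called, in percent, with the dashed line at the 30.7% called over all abundant genes. All 10 abundant cytotoxic granule genes were higher, most of them abundant through FR1 alone, and 6.17% of the 81 ribosomal protein genes were called.

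The largest fold changes fell on genes outside the NK cell lists too. CYRIA, an inhibitor of RAC1 signaling to actin, had 0, 0 and 1 counts in the hnCD16 libraries and 147, 151 and 143 CPM in FR1. RCAN2, an inhibitor of calcineurin, had 1, 2 and 1 counts in the hnCD16 libraries and 436, 429 and 437 CPM in FR1, a ratio of 6038 (2358 to 22162). PDGFRA, a growth factor receptor, and PDLIM1, an actin-binding protein, had ratios of FR1 over hnCD16 of 4195 (1638 to 15395) and 4280.2 (1185 to 35343). The rule for named genes also took in RPS4Y1 and EIF1AY of the Y chromosome, and 3 genes of that chromosome were abundant DEGs, all higher in FR1. Genes nearly absent from FR1 were just as sharp. GTSF1, a factor of the piRNA pathway, read 481, 442 and 423 CPM in hnCD16 and had 0, 0 and 1 counts in FR1, a ratio of 23545 (4226 to 929984) of hnCD16 over FR1. HMGN3, a nucleosome-binding protein, ALDH1A2, which makes retinoic acid, and EPB41L2, a membrane skeleton protein, had ratios of hnCD16 over FR1 of 12291 (2206 to 485472), 2252 (1034 to 6135) and 3811 (1055 to 31470.2). HSD17B12, an enzyme of fatty acid elongation, had a ratio of 3621 (1002 to 29900.3). NREP read 544, 537 and 513 CPM in hnCD16 and 0.0579, 0.231 and 0.343 CPM in FR1. GOLGA8N had no count in FR1 and was at least 810.2-fold lower, but its level is uncertain because the GOLGA8 genes are near-identical copies.

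FR2 against CTRL uses none of the FR1 and hnCD16 libraries, but all 4 groups shared 1 fit. In the NK, T cell, HLA and Y chromosome lists CTRL lay with hnCD16 and FR2 with FR1. The comparison therefore describes a similar split of populations, and it cannot tell the construct and the population apart. In that comparison, 765 of the 892 abundant DEGs were DEGs in the same direction and 0 in the other. The count was 515 (85.7%) of the genes higher in FR1 and 250 (85.9%) of the genes lower, where 18.7% and 19.6% of all tested genes were higher and lower in FR2. The remaining 127 all had the same sign and an adjusted p of at most 0.05 (edgeR) but missed the fold threshold, and their median absolute log2 fold change between FR1 and hnCD16 was 1.11. GZMB had log2 fold changes of 11.91 in FR1 against hnCD16 and 11.85 in FR2 against CTRL. B2M had 2.74 and 3.25, ITM2A -11.54 and -11.25, and CD3D -12.98 and -12.09. For CD38 the values were -1.36 and -0.25, so it was a DEG in the former comparison and not in the latter. The difference between these 2 contrasts was not tested.

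**Figure D4:**
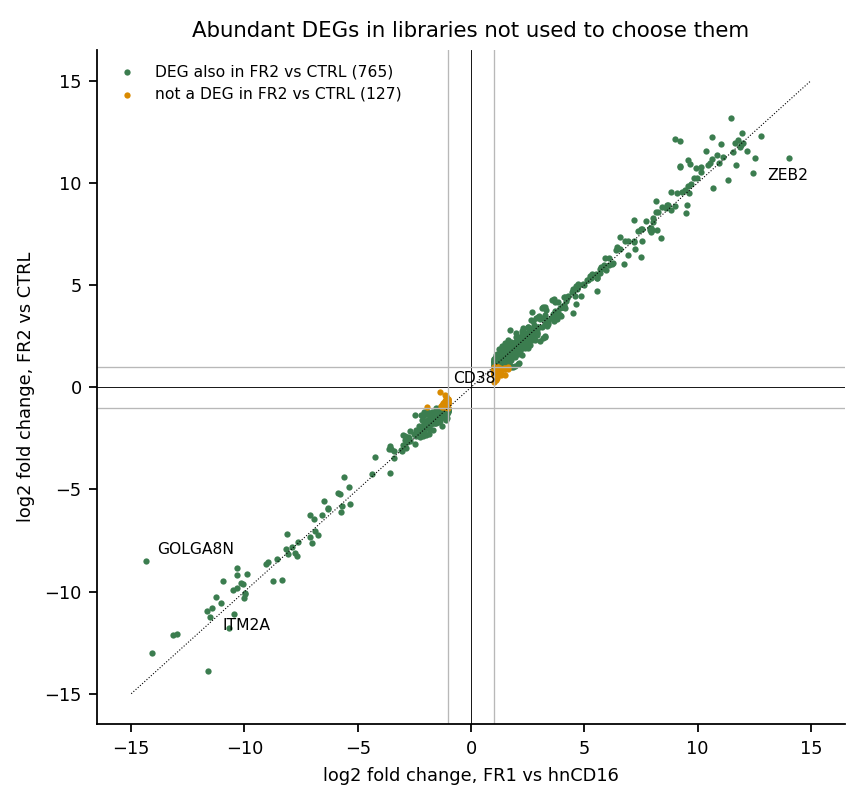
Log2 fold change of FR2 against CTRL (vertical) and of FR1 against hnCD16 (horizontal) for the 892 abundant DEGs, with grey lines at the fold threshold and a dotted line of equality. The 765 genes that were DEGs in both are green and the 127 that were not DEGs in FR2 against CTRL, all with the same sign, are orange.

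Few of these genes were DEGs between FR1 and FR2. Between them, 1.93% of all tested genes were DEGs, and 4 of the 892 were among them, all lower in FR1. The 4 were CXCR4, TBC1D4, CD38 and GOLGA8N, with log2 fold changes of FR1 over FR2 of -1.41, -1.27, -1.07 and -5.75. CXCR4 and GOLGA8N were near 0 in both groups, with SEs of 0.443 and 1.42. CXCR4 read 0.174, 0.173 and 0.343 CPM in FR1 and 0.951, 0.396 and 0.515 CPM in FR2. GOLGA8N had no count in FR1 and 0.672, 0 and 0.4 CPM in FR2, so the size of its change is uncertain. CD38 read 57, 67.5 and 64.3 CPM in FR1, 132, 131 and 135 CPM in FR2, 160.4, 169.8 and 155 CPM in hnCD16 and 162, 159 and 152 CPM in CTRL. All 3 FR1 libraries lay below every library of the other groups for CD38. TBC1D4 is a RAB GTPase-activating protein that restrains glucose transport. It read 1.79, 2.54 and 1.83 CPM in FR1, 4.64, 5.26 and 4.98 CPM in FR2 and 99.1, 101 and 101 CPM in hnCD16. Without the fold threshold, 449 of the 892 had an adjusted p of at most 0.05 between FR1 and FR2 (edgeR). The median absolute log2 fold change over the 892 was 0.18 between FR1 and FR2 and 1.67 between FR1 and hnCD16, and both contrasts share the FR1 libraries.

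The abundant DEGs were spread over all chromosomes, and their shares varied. Chromosome 1 had 110 genes higher and 17 lower of 350 abundant genes, 31.4% and 4.86% against 20.7% and 10% over all abundant genes. Chromosome 15 had 31 higher and 3 lower of 109. Chromosome 13 ran the other way, with 7 higher and 24 lower of 75. On chromosome 6, which holds the HLA genes, 43.8% of 144 abundant genes were DEGs, 33 higher and 30 lower. These were 22.9% and 20.8%, so the share above that of all abundant genes lay mainly in genes lower in FR1. On the X chromosome 43% of 93 were DEGs, 28 higher and 12 lower. The plot by chromosome leaves out the Y chromosome. On chromosome 19, 21.6% of 116 abundant genes were DEGs.

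Within chromosomes the shift was regional. The tested genes were placed by their RefSeq positions (GRCh38.p14) in windows of 25 Mb, and 129 windows held at least 20 of them. In 81 windows the median log2 fold change of all tested genes lay within 0.25 of 0, in 8 it was at least 0.5 and in 13 at most -0.5. The highest median, 1.24 over 50 genes, was at 125 to 150 Mb of chromosome 1, next to a window at 150 to 175 Mb with 0.83 over 271 genes. The latter window held 50 abundant genes higher and 4 lower in FR1 of 83, among them S100A4, S100A6, S100A10, S100A11, MCL1, TAGLN2, RPS27, PSMB4, IFI16, HDGF and CD244. At 150 Mb to the end of the long arm of the X chromosome the median was 1.16, with 12 of 19 abundant genes higher and none lower, including RPL10 and FLNA. Chromosome 13 held the lowest medians, -0.88 at 25 to 50 Mb and -1.06 at 50 to 75 Mb. There 16 of 33 and 4 of 7 abundant genes were lower and none higher, including HMGB1, ELF1 and RFC3. In FR2 against CTRL, which shares no library, the medians of these 5 windows were 1.15, 0.74, 1.07, -0.76 and -0.96. The windows were picked for their medians, so their values are a description.

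The limits of the selection fell within a continuum. Just past the fold threshold were CEPT1 (log2 fold change -1.00241), UHRF2 (1.00335) and SPAG9 (1.00341), and just under it RAB8B (-0.99869), LGALS8 (0.996886) and EXOC7 (0.996685). Just past 100 CPM in the higher group lay PPIE and MACROD2, at 100.108 and 100.216 CPM, and just under it RAP2A, ZNF92 and GOLGA8O, at 99.9003 to 99.9756 CPM. A further 1656 abundant genes had an adjusted p of at most 0.05 (edgeR) with a smaller fold change than the threshold. Leaving out any 1 of the 6 libraries gave between 881 and 913 abundant DEGs.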

How the data were processed

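RNA-seq was measured in cells labelled YT, 3 libraries per group. Per the labels and the study's methods, RNA was depleted of ribosomal RNA (the labels also name oligo(dT) beads), reads were mapped to GRCh38.p13 with HISAT2 2.1.0, and RSEM 1.3.1 gave the deposited expected counts per gene, which carry no normalization, and the TPM values computed by the authors. The submitters' processing notes also name Bowtie2 2.3.4.3 and DESeq2 1.4.5. Use of strand and the treatment of reads shared by paralogs were not given in the sources used here. A transcript table was not used.

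Expected counts were rounded. Genes were filtered with filterByExpr and scaled by TMM factors and tested in 1 fit of all 4 groups (quasi-likelihood test, edgeR 4.0.16, R 4.3.3). The SE is the log2 fold change over the square root of F. On simulated counts the step was tested before use. The abundance limit was 100 CPM (TMM sizes), and the floor for lower bounds was the CPM of 3 counts, averaged over the 3 libraries of the group. Ratios against few counts carry exact Poisson intervals (95%) of the summed count of the lower group. Same-numbered replicates of FR1 and hnCD16 correlated at 0.105, 0.0616 and 0.00298 in their deviations, so the numbers were not taken as pairs. No pair of replicates agreed within sampling noise. Positions and promoters came from RefSeq, which matched 17525 genes by gene ID.

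The members and the function lists were chosen with earlier results of these data known. Named genes were the 20 most abundant in each direction, the 10 largest changes each way, up to 4 DEGs of highest level per list, the 10 highest genes, the construct genes, those differing most between FR1 and FR2, and those at the thresholds. Others were named after their values were seen. Alternatives were DESeq2 1.42.0, RLE or no factors, filters, TPM on a log2 scale in limma 3.58.1 (pseudocount 1 or 0.1), the replicate block, thresholds and leaving out each library. Some genes that the rule names are not reported here.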

Additional observations from a re-analysis of the deposited data

How the results depend on the processing

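Of 2108 values for 142 named genes under the alternatives, 2049 kept their direction and side of the thresholds, 42 fell below a threshold, 17 passed one and 0 reversed. The number of abundant DEGs was 885 with DESeq2 and 851 on library sizes alone, which shifted the median log2 fold change by -0.080 and left 61.3% of abundant DEGs higher in FR1. With the replicate block, which the numbers do not support as a pairing, there were 893 abundant DEGs, 892 of them shared, and it changed no count of calls by over 1.5 times. Requiring at least 10 counts in every FR1 and hnCD16 library left 1652 DEGs higher and 1415 lower and 3 of the cytokine receptor genes, since fewer genes were tested. Only 3 glycolysis genes were called on library sizes alone, and the cause was not tested. With a limit of 50 CPM there were 990 abundant DEGs higher and 587 lower, with 200 CPM 245 and 123, with 100 CPM in both groups 106 and 62, and with 100 TPM 305 higher. A log2 threshold of 2 left 261 and 97, and none gave 1408 and 1140. By TPM, genes higher in FR1 held 15.7% of FR1 and genes lower 7.07% of hnCD16. Low values limit the size of folds near 0 counts. They also affect which abundant genes are called. With at least 10 counts required in every FR1 and hnCD16 library there were 812 abundant DEGs, 802 of them shared.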
